A study of Homo sapiens with 4 samples.

Results

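The high mobility group (HMG) genes encode small, abundant proteins that bind DNA or nucleosomes without reading a long sequence. The 10 genes described here are HMGA1 and HMGA2, HMGB1 to HMGB3, and HMGN1 to HMGN5. They were taken by symbol from the annotated transcripts of the deposited tables, with pseudogenes left out, and a gene's level is the sum over its annotated transcripts. This gave 10 of 50765 genes and 73 of 185591 annotated transcripts. Of the 73 transcripts, 39 were annotated as protein coding and 34 were above 0 in at least 1 library.

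RNA was sequenced from WI-38, a line of human fetal lung fibroblasts that divides for a limited number of population doublings and then enters replicative senescence. The young cells had a population doubling level of 21 and the senescent cells one of 60, and whole cells and mitoplasts of each gave 1 library, 4 groups in all. A mitoplast is a mitochondrion without its outer membrane, and RNase A was applied here both ahead of the pelleting of the mitoplasts and after it. The crossed groups address how RNA differs with senescence and between whole cells and mitoplast preparations. Whether RNA in the mitoplast libraries lay inside mitochondria was not tested. All values come from this 1 line, and none of the differences below has a replicate check.

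The HMGA proteins carry 3 AT-hooks, short arginine-rich stretches that enter the minor groove of AT-rich DNA. HMGA2 is high in the embryo and in many tumours, is repressed by the let-7 microRNAs, and is known as a component of the heterochromatin foci of senescent fibroblasts. The HMGB proteins have a pair of HMG boxes that bend DNA and an acidic tail. HMGB1 is also released from stressed or senescent cells and then acts as an alarm signal, and HMGB2 is known to decline as fibroblasts stop dividing. The HMGN proteins bind the nucleosome itself through a conserved core of positively charged residues and loosen compact chromatin.

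The HMGA2 values below turn on which transcript was counted, so bases 61 to 270 of the coding sequence of HMGA2-204 (330 nt), the longest coding transcript of the gene above 0 in any library, and the coding part of HMGA2-209 (168 nt), a short transcript annotated for nonsense-mediated decay, are shown 5′ to 3′ from the GENCODE 29 transcripts. In the first, capitals mark the stretch from base 112 to base 249 (138 nt) that it shares with HMGA2-209. In the second, capitals mark the last 30 bases, which HMGA2-204 lacks.
HMGA2-204: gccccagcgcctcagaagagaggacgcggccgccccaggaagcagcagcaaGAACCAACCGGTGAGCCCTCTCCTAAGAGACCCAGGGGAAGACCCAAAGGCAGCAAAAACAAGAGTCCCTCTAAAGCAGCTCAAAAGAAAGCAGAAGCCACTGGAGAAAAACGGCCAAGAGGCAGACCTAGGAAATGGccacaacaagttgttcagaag
HMGA2-209: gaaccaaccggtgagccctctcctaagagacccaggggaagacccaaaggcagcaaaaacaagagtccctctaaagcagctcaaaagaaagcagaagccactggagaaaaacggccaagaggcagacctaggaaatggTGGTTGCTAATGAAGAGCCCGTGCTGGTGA
Codons for the arginine-glycine-arginine-proline centre of an AT-hook occurred 3 times in HMGA2-204, at bases 85 to 96, 145 to 156 and 229 to 240 of the coding sequence. The last 2 lie in the stretch shared with HMGA2-209, and the first lies outside it. HMGA2-209 starts within the reading frame, without the start codon, and ends in a stop codon inside its own 30 bases. A read from the shared stretch fits either transcript.

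The HMGN genes are alike in the codons of the nucleosome-binding core, which are shown for 1 coding transcript of each gene with capitals where a base differs from HMGN2.
HMGN2-201: agaagatccgcgaggttgtctgct
HMGN1-204: agGagatcGgcgCggttgtcAgct
HMGN3-202: agaCgGtcTgcCagAttgtcAgcG
HMGN4-201: agGagatcAgcTCggttgtctgct
HMGN5-201: agaagatcTgcCaggttgtctgct
Over these 24 bases, HMGN5 differed from HMGN2 at 2 positions, HMGN1 and HMGN4 at 4 each and HMGN3 at 7. HMGN1-203, the only coding transcript of HMGN1 above 0 in whole young cells, is 30 coding bases shorter than HMGN1-204 and does not hold the core codons. HMGN2 and HMGN4 were the closest pair of the family, and their whole coding sequences (273 nt each) are shown because their levels rest on reads that must be told apart. Capitals mark the 37 bases at which they differ.
HMGN2-201: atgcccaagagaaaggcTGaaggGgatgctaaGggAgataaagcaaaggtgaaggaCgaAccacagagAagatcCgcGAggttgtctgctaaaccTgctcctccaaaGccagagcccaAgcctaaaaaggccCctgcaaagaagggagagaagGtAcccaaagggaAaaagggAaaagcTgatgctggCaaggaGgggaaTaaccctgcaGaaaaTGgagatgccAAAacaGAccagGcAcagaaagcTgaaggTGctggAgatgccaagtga
HMGN4-201: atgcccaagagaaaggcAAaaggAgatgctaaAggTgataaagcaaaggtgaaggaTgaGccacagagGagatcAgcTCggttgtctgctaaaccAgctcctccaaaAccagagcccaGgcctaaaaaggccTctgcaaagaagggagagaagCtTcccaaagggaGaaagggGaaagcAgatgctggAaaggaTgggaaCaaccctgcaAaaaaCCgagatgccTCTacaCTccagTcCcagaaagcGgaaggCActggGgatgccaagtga
The identity was 86.4%, and the longest run without a difference was 20 nt. HMGB1 and HMGB2 were 75.3% identical with a longest run of 29 nt, and HMGA1 and HMGA2 53.4% with a longest run of 12 nt.

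Levels are in FPKM, the fragments mapped to each kilobase of a transcript, scaled to the library, so that genes of different length can be compared. The number of fragments behind a value and the depth of the libraries are unknown, and the counting error cannot be given. Between 6593 and 9724 coding genes reached 1 FPKM in a library, the fewest in senescent mitoplasts. Young mitoplasts had 9724 such genes and whole young cells 9706. Of all FPKM, annotated transcripts made up 46.3% in whole young cells, 23.8% in whole senescent cells, 7.34% in young mitoplasts and 2.72% in senescent mitoplasts, the rest being assembled transcripts without a name. The sums of all FPKM were 2456300, 4067990, 24429200 and 26454200 in that order. Those of annotated transcripts were 1138310, 968870, 1792980 and 719438, the highest in young mitoplasts. Of the coding genes that reached 10 FPKM in whole young cells, 3.74%, 7.57% and 23.8% were listed at exactly 0 in the other 3 libraries in the same order, and 0 can be a failed estimate. Of 10 fibroblast markers, 10, 10, 9 and 8 reached 1 FPKM in the 4 libraries (summed levels of 7078, 3676, 5430 and 925 FPKM). Of 4 endothelial and 7 blood markers at most 1 did in any library. Of 7 epithelial markers 2 to 4 did, with sums between 22.7 and 26.6 FPKM. The part of these differences between libraries in the results below was not tested.

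In whole cells, 5 of the 10 genes had a level lower by at least 1 on the log2 scale in the senescent than in the young library, and 0 were higher. The 5 were HMGA1, HMGB1, HMGB2, HMGB3 and HMGN1, and among them HMGB2 and HMGB3 had the lowest ratios, at 13.9-fold and 15.0-fold lower levels. Ratios are of FPKM + 1, which understates the differences of low genes. Of 10674 nuclear coding genes at 1 FPKM or more in either library, 22.3% were lower by that amount and 14.6% were higher. The median ratio of the 10 genes was −1.13, beside −0.21 for the 9548 coding genes above 0 in both libraries. Fewer cells that express a gene and less RNA per cell cannot be told apart in such bulk RNA. When all libraries were rescaled to an equal sum of annotated FPKM, or by the median of ratios of coding genes, the HMG counts were again 5 and 0. With equal sums 17.7% of coding genes were lower and 18.7% higher, with medians of −0.86 for the family and 0.04 for coding genes. By the median of ratios 17.4% were lower and 16.4% higher, with medians of −0.91 and −0.01.

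In mitoplasts, 9 of the 10 genes were lower by 1 or more in the senescent library and 0 were higher, where 56.5% of 11047 coding genes were lower and 20.3% higher. Of the 9, HMGB3, HMGN3, HMGN4 and HMGN5 were listed at 0 in senescent mitoplasts, and no ratio is given for them. Of the 11047 coding genes, 3557 were lower by 1 or more and listed at 0 there. The other 6 genes of the family had a median of −3.66, beside −0.60 for coding genes above 0 in both libraries. The background depended on the scale: with equal annotated sums 39.5% of coding genes were lower and 36.4% higher (medians of −2.21 for the family and 0.74 for coding genes), and by the median of ratios 46.5% and 29.2% (medians of −2.80 and 0.21). On these scales 8 and 9 HMG genes were lower and 0 higher.

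Between mitoplasts and whole cells of young cells, HMGA1, HMGN2 and HMGN3 were higher by 1 or more in mitoplasts and HMGA2 was lower. Of 11474 coding genes, 20.9% were higher and 35.2% lower. The medians were 0.15 for the family and −0.31 for the 9274 coding genes above 0 in both libraries. With equal annotated sums, 1 HMG gene was higher and 3 were lower, beside 13.9% and 47.6% of coding genes, and the family median turned to −0.50, with −0.86 for coding genes. By the median of ratios the HMG counts were 4 and 1, beside 27.9% and 27.7% of coding genes, with medians of 0.63 and 0.12. In senescent cells, HMGB2 alone was higher in mitoplasts and 7 genes were lower, 4 of them listed at 0, where 18.4% of 10867 coding genes were higher and 61% lower. Of these coding genes, 3352 were lower and listed at 0 in senescent mitoplasts. The median was −1.27 over the 6 HMG genes above 0 and −0.99 over the 6616 coding genes above 0 in both libraries. By the median of ratios, 2 of 9 HMG genes were higher and 4 lower, beside 28.8% and 46.4% of coding genes, with medians of −0.11 and 0.09. HMGB3 fell below the filter on that scale, at 0.957 FPKM in whole senescent cells. The comparisons between fractions share their whole-cell libraries with the comparison of whole cells, so their ratios are not independent of it.

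**Figure D1:**
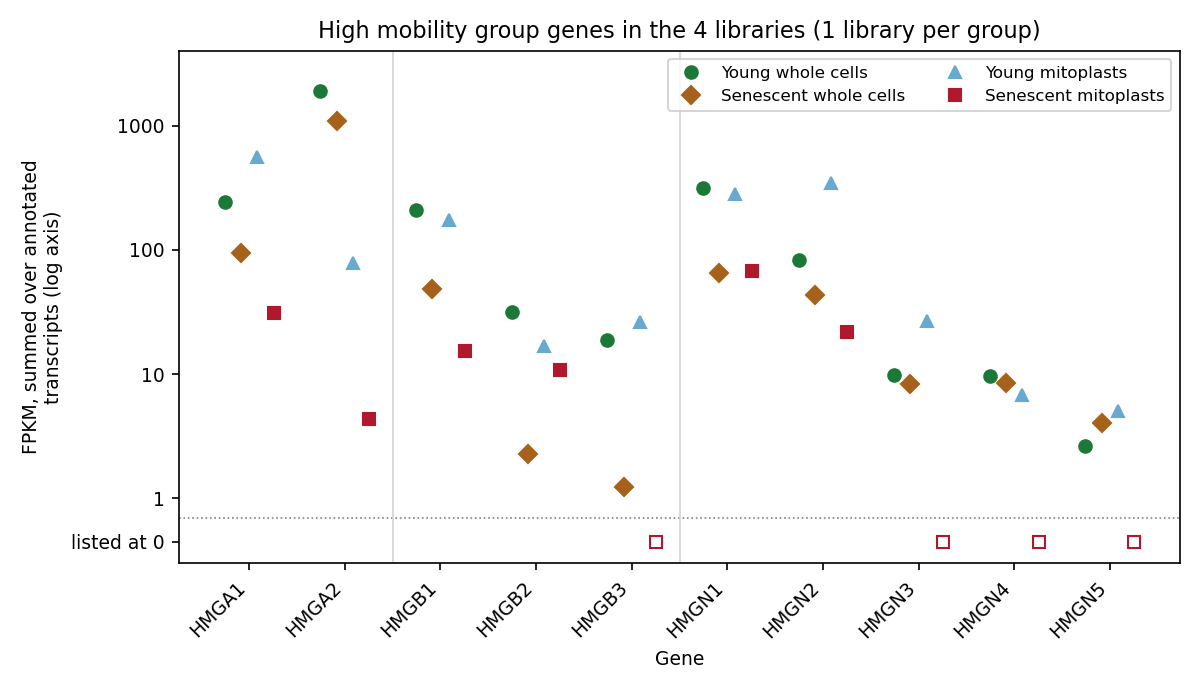
FPKM of each HMG gene (log axis) in the 4 libraries, 1 point per library, with open squares for genes listed at 0. HMGA2 stands at 1888 and 1082 FPKM in the 2 whole-cell libraries, and HMGB3 and HMGN3 to HMGN5 are at 0 in senescent mitoplasts.

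**Figure D2:**
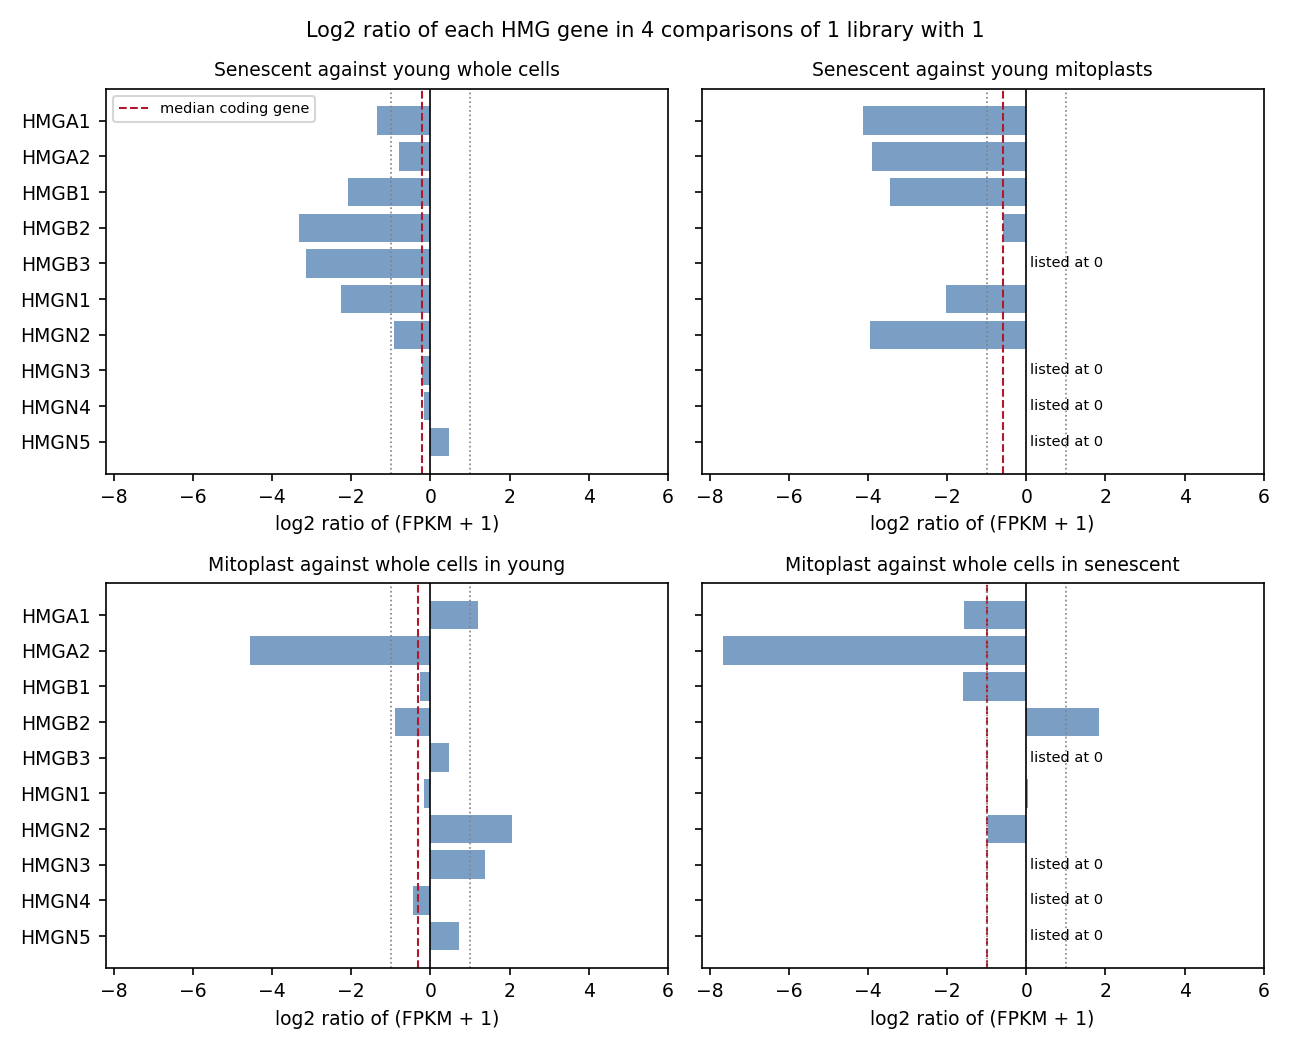
Log2 ratio of FPKM + 1 of each HMG gene in the 4 comparisons, each of 1 library with 1. Bars start from 0, dotted lines are at −1 and 1, and a dashed line is at the median of coding genes above 0 in both libraries. In whole cells HMGB2 (−3.32) and HMGB3 (−3.13) have the lowest ratios, and HMGA2 has the lowest in both comparisons of mitoplasts with whole cells (−4.56 and −7.65).

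HMGA2 had the highest summed level of the family in whole cells, at 1888 FPKM in the young and 1082 FPKM in the senescent library, above 99.8% and 99.6% of coding genes at 1 FPKM or more. It stood at 78.8 FPKM in young and 4.39 FPKM in senescent mitoplasts. The 2 whole-cell libraries were thus far above the 2 mitoplast libraries, and the ratio was −4.56 in young and −7.65 in senescent cells. Between whole-cell libraries the ratio was −0.80.

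Almost all of that whole-cell level lay in HMGA2-209 (485 nt). This transcript was at 1862 FPKM in whole young and 957 FPKM in whole senescent cells, and was listed at 0 in both mitoplast libraries. It made up 98.6% and 88.4% of the gene's FPKM in the 2 whole-cell libraries. Since FPKM divides by length, the coding share is larger when each transcript is weighted by its length, at 11.4% in whole young and 21.0% in whole senescent cells.

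The coding transcripts of HMGA2 gave another order of the libraries. HMGA2-204 (4473 nt) was at 25.9 FPKM in whole young cells, 12.1 in whole senescent cells, 23.98 in young mitoplasts and 4.39 in senescent mitoplasts. It was therefore lower in the senescent library of each fraction and close between whole cells and mitoplasts of young cells. HMGA2-202 (611 nt) was at 113 FPKM in whole senescent cells and 54.8 in young mitoplasts, and listed at 0 in the other 2 libraries. Summed over coding transcripts, HMGA2 was at 25.9 FPKM in whole young and 125 FPKM in whole senescent cells, a ratio of 2.23, opposite in sign to the −0.80 of the gene. With transcripts of 1000 nt or longer alone, the ratio was −1.03. For young mitoplasts against whole young cells the sign also turned, from −4.56 for the gene to 1.57 for its coding transcripts, and with transcripts of 1000 nt or longer it was −0.11.

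**Figure D3:**
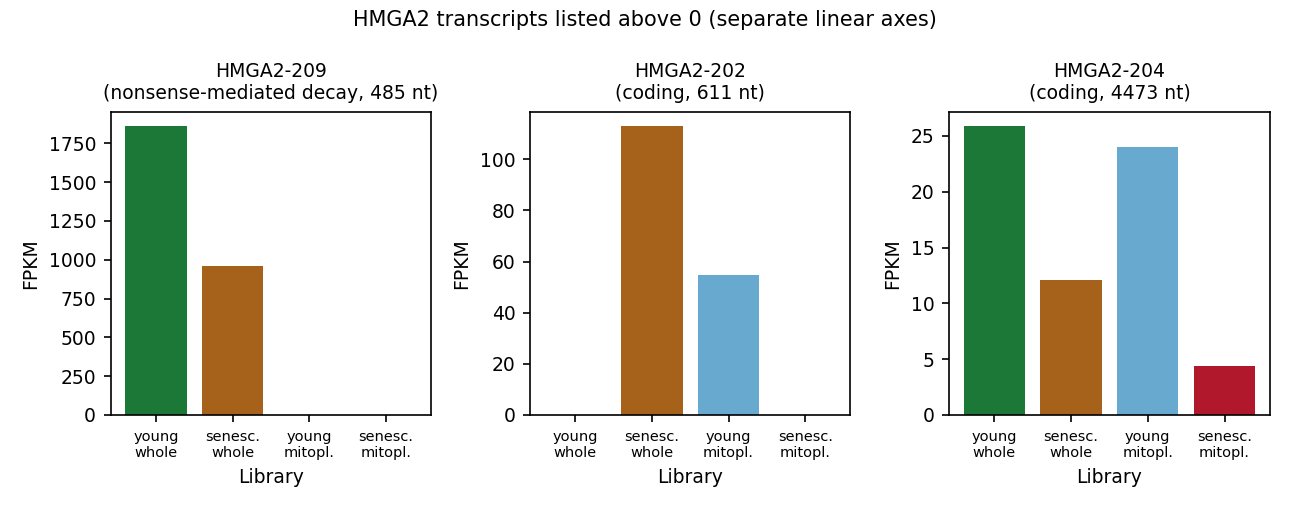
FPKM (linear axes that differ between panels) of the 3 HMGA2 transcripts above 0 in any library, 1 bar per library. HMGA2-209 is seen in whole cells alone (1862 and 957 FPKM), HMGA2-202 in whole senescent cells and young mitoplasts (113 and 54.8), and HMGA2-204 in all 4 libraries (4.39 to 25.9).

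HMGA1, whose coding sequence also holds 3 of the AT-hook codon runs, was at 244 FPKM in whole young cells, 95.0 in whole senescent cells, 559 in young mitoplasts and 31.2 in senescent mitoplasts. It was lower in the senescent library of both fractions, with ratios of −1.35 in whole cells and −4.12 in mitoplasts. The mitoplast library was above whole cells in young cells (1.19) and below them in senescent cells (−1.58). All of its level came from coding transcripts: HMGA1-201 (1920 nt) held it alone in 3 libraries, and HMGA1-202 (1773 nt) added 98.8 FPKM to 460.2 in young mitoplasts. Restricting the sum to coding or to longer transcripts therefore left its ratios as they were.

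HMGB2, the HMGB member best known as a marker of dividing cells, was at 31.9 FPKM in whole young cells and 2.30 in whole senescent cells. In mitoplasts it was at 16.8 FPKM in the young and 10.9 FPKM in the senescent library. The senescent whole-cell library was thus the lowest of the 4, and the mitoplast libraries lay closer together. Its ratio between whole-cell libraries was −3.32, or −3.11 relative to the median coding gene. Of the 9548 coding genes above 0 in both of these libraries, 0.974% had a lower ratio. Left out of that share were 587 coding genes lower by 1 or more and listed at 0 in whole senescent cells. Between mitoplast libraries the HMGB2 ratio was −0.59 as deposited, 0.27 by the median of ratios and 0.82 with equal annotated sums. In senescent cells the mitoplast library was 4.73-fold above whole cells (1.85), and HMGB2 was the single HMG gene higher there.

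HMGB2-202 (1032 nt) led the gene in whole young cells, at 17.8 FPKM, and was at 10.5 and 10.9 FPKM in the young and senescent mitoplast libraries. In whole senescent cells the coding transcripts HMGB2-202 and HMGB2-203 (1175 nt) were at 0.568 and 0.802 FPKM, and the retained-intron transcript HMGB2-205 (1841 nt) was highest, at 0.928 FPKM. The coding transcripts of HMGB2 summed to 30.0 FPKM in whole young and 1.37 FPKM in whole senescent cells, a ratio of −3.71.

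HMGB3, an X-linked paralogue, was at 18.7 FPKM in whole young cells, 1.24 in whole senescent cells and 26.4 in young mitoplasts, and was listed at 0 in senescent mitoplasts. Both young libraries were above both senescent libraries. Its 3 transcripts above 0 were all coding, but they differed between libraries. HMGB3-204 (812 nt) led whole young cells with 13.5 FPKM and was at 0 elsewhere, HMGB3-202 (707 nt) led young mitoplasts with 17.2 FPKM and was at 0 elsewhere, and HMGB3-201 (3560 nt) was at 5.14, 1.24, 9.22 and 0 FPKM in the 4 libraries. With transcripts of 1000 nt or longer alone the whole-cell ratio was −1.45 in place of −3.13.

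HMGB1, the most abundant HMGB gene in all 4 libraries, was at 209.0 FPKM in whole young cells, 48.6 in whole senescent cells, 175 in young mitoplasts and 15.4 in senescent mitoplasts. The 2 young libraries were above the 2 senescent ones, with ratios of −2.08 in whole cells and −3.43 in mitoplasts. HMGB1-207 (503 nt), a processed transcript without a coding frame, made up 68.0% of the young and 48.8% of the senescent whole-cell level, at 142 and 23.7 FPKM. HMGB1-201 (821 nt), a coding transcript, led young mitoplasts at 75.6 FPKM and HMGB1-204 (1727 nt) was the only one above 0 in senescent mitoplasts.

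How far HMGB1 was lower depended on these transcripts. Its coding transcripts summed to 66.8 FPKM in whole young and 24.9 FPKM in whole senescent cells, a ratio of −1.39. Transcripts of 1000 nt or longer summed to 13.5 FPKM in each whole-cell library. In young cells that sum was HMGB1-203 (5485 nt) alone, and in senescent cells it was 4.65 FPKM of HMGB1-203, 7.37 of HMGB1-205 (1282 nt) and 1.47 of HMGB1-206 (4199 nt). HMGB1-203 itself was thus lower in the senescent library. Between fractions of young cells the HMGB1 ratio was −0.25 for the gene, 0.74 for its coding transcripts and 1.39 for transcripts of 1000 nt or longer.

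HMGN1, the HMGN protein known for its part in DNA repair and histone modification, was at 314.5 FPKM in whole young cells and 65.3 in whole senescent cells, a ratio of −2.25. The mitoplast libraries were at 279 and 67.5 FPKM. As deposited, the ratios between fractions were −0.17 in young and 0.05 in senescent cells. They were −0.84 and 0.61 with equal annotated sums and 0.32 and 1.23 by the median of ratios. The sign in young cells and the call in senescent cells thus depended on the scale. The locus also held 2 assembled transcripts with 22.8 FPKM together in whole senescent cells, which are not in the sum.

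The FPKM of HMGN1 came mainly from transcripts without a coding frame. HMGN1-210 (508 nt), which keeps an intron, was at 270.4 FPKM in whole young cells, 65.3 in whole senescent cells, 242 in young mitoplasts and 14.8 in senescent mitoplasts. HMGN1-218 (405 nt) led senescent mitoplasts at 52.7 FPKM. A coding transcript was above 0 in the young libraries alone: HMGN1-203 at 44.2 FPKM in whole cells and HMGN1-204 at 37.5 FPKM in mitoplasts. All coding transcripts of HMGN1 were listed at 0 in both senescent libraries.

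HMGN2 was at 82.6 FPKM in whole young cells, 43.6 in whole senescent cells, 347 in young mitoplasts and 21.8 in senescent mitoplasts. Young mitoplasts were the highest, 4.21-fold above whole young cells (2.06), and senescent mitoplasts the lowest. The coding transcript HMGN2-201 (1191 nt) was at 55.4, 14.1, 120 and 0 FPKM in the same order. Its ratio between whole-cell libraries was −1.90, lower than the −0.91 of the gene, and between fractions of young cells it was 1.10. The transcripts without a coding frame HMGN2-207 (320 nt) and HMGN2-203 (853 nt) were the highest of the gene in 3 libraries: HMGN2-207 in whole senescent cells (20.2 FPKM) and young mitoplasts (144), and HMGN2-203 in senescent mitoplasts (11.1). Between fractions of senescent cells the gene's ratio was −0.97 as deposited and 0.19 by the median of ratios.

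The 3 remaining HMGN genes were low and differed little between whole-cell libraries. HMGN3, first described as a partner of the thyroid hormone receptor, was at 9.81 FPKM in whole young cells, 8.27 in whole senescent cells and 26.9 in young mitoplasts. Its coding transcripts HMGN3-201 (831 nt) and HMGN3-202 (872 nt) kept a similar proportion, at 5.97 and 3.84 FPKM in whole young and 5.02 and 3.26 FPKM in whole senescent cells. HMGN4, an intronless relative of HMGN2, was at 9.69, 8.49 and 6.85 FPKM in the same 3 libraries, all in HMGN4-201 (1225 nt). HMGN5, an X-linked member with a long acidic tail, was at 2.64, 4.06 and 5.02 FPKM, led by HMGN5-205 (742 nt) in each. All 3 were listed at 0 in senescent mitoplasts.

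Between whole-cell libraries the ratios of these 3 genes were −0.22 for HMGN3, −0.17 for HMGN4 and 0.48 for HMGN5. With equal annotated sums the first 2 turned to 0.03 and 0.08. In the values as deposited, HMGN5 was the single HMG gene with a higher level in the senescent whole-cell library, by less than the ratio of 1 used here. The row of HMGN4-201 carries its Ensembl identifier in 3 files and an assembled name in that of whole young cells. Without that value of 9.69 FPKM, the gene would count as higher, from 0.

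**Figure D4:**
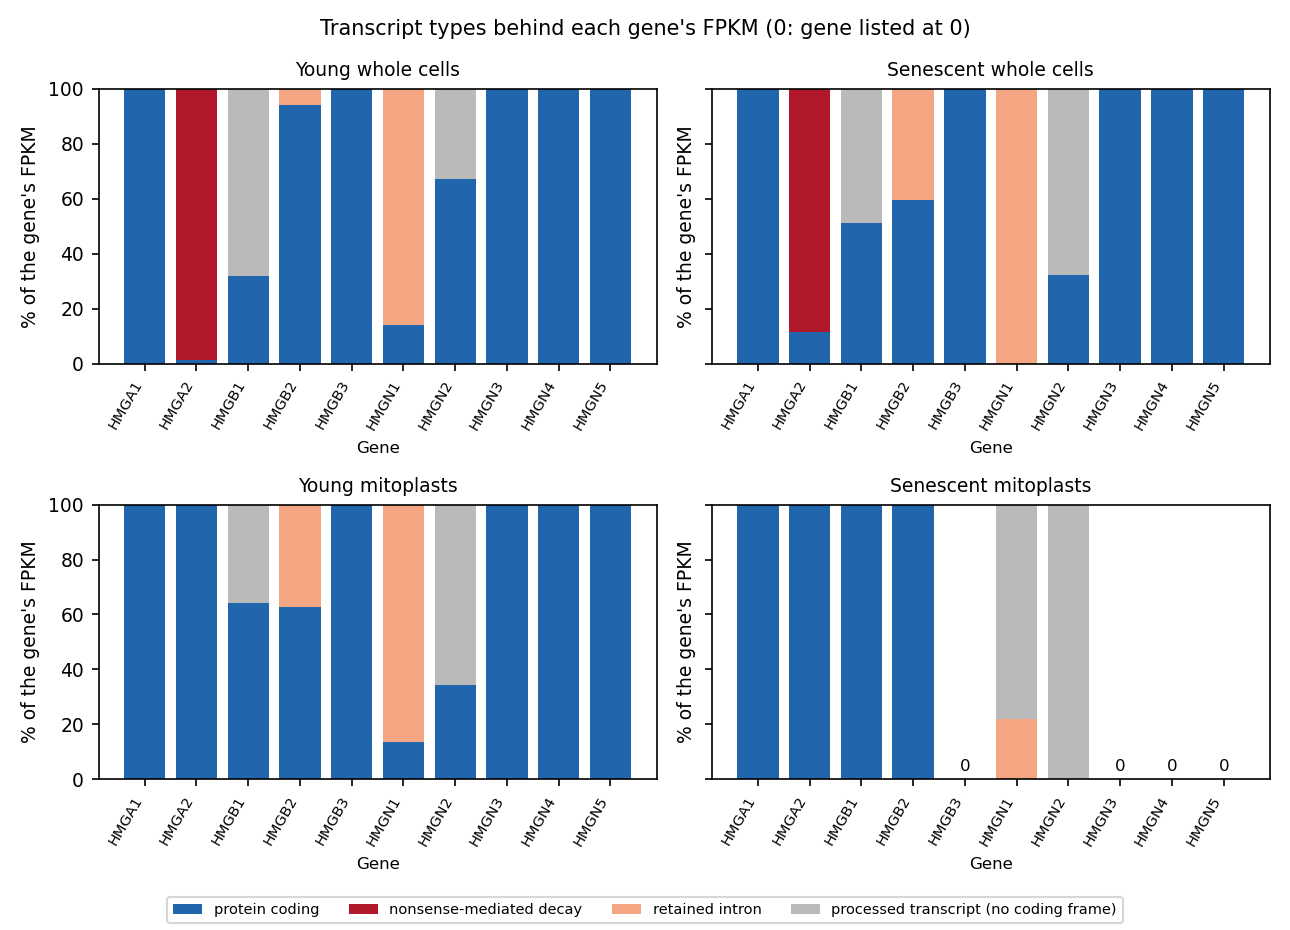
Share of each gene's FPKM (%) by annotated transcript type in each library, with 0 above genes listed at 0. HMGA1, HMGB3 and HMGN3 to HMGN5 are coding throughout where present, while HMGA2 in whole cells (98.6% and 88.4% nonsense-mediated decay) and HMGN1 are mostly not.

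Summed over the family, the 10 genes were at 2810 FPKM in whole young cells, 1359 in whole senescent cells, 1522 in young mitoplasts and 151 in senescent mitoplasts. Counting coding transcripts alone, the sums were 507, 283, 983 and 61.8 FPKM. By the first measure whole young cells were the highest, and by the second young mitoplasts were. The HMGA pair gave 2131 of the 2810 FPKM in whole young cells, through HMGA2-209, but 35.6 FPKM in senescent mitoplasts, where the HMGN genes led with 89.3 FPKM. The HMGB genes summed to 259, 52.2, 219 and 26.2 FPKM. The order of the genes within each library has no replicate spread, so neighbours in it cannot be told apart.

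Pseudogenes named after the HMG genes, most of them close in sequence to their parent where compared, were also listed with FPKM values. For most parents they were small beside the gene. The 27 named HMGB3 pseudogenes summed to 3.86 FPKM in whole young and 6.94 FPKM in whole senescent cells, which is 17.1% and 84.8% of gene and pseudogenes together. The largest was HMGB3P9, at 2.94 FPKM in whole senescent cells. It was 84.2% identical to the HMGB3 coding sequence, with a longest exact run of 36 nt. HMGB3P24, at 1.37 FPKM there, was 93.7% identical with a run of 87 nt, and HMGB3P14, at 1.25 FPKM, 81.6% with 35 nt. Reads of HMGB3 and of a close copy could be given to either, so its 1.24 FPKM in whole senescent cells is uncertain. By how much was not tested. The pseudogenes of HMGB1 held 11.0% in whole senescent cells, and those of HMGN2 held between 2.87% and 15.7% over the 4 libraries. In young mitoplasts 9.11 of the 10.2 FPKM of HMGN2 pseudogenes was HMGN2P46, which aligned to the HMGN2 coding sequence over 14 nt alone. With pseudogenes added to their parents, the HMGB3 ratio between whole-cell libraries was −1.36 in place of −3.13, and 5 HMG genes were lower and 0 higher.

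No source used here says whether reads were assigned by strand, so reads of a gene and of an overlapping antisense gene may not be told apart. AC090673.1, an antisense gene over the region of HMGA2-209 in GENCODE 29, was listed at 0 in all 4 libraries. AC090673.2, another antisense gene within HMGA2, was at 126 FPKM in whole young cells, 65.5 in whole senescent cells, 4.35 in young mitoplasts and 0.186 in senescent mitoplasts, with the libraries in the same order as for HMGA2. RPSAP52, antisense to the start of HMGA2, was between 4.06 and 5.37 FPKM in 3 libraries and at 0 in senescent mitoplasts. HMGN3-AS1 stayed at or below 1.50 FPKM.

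Promoter sequences from RefSeq (GRCh38.p14) were available for 8 of the 10 genes, as 12 windows of the 250 bases before a gene start. CCAAT is the binding motif of NF-Y, a factor of many genes active in dividing cells. The HMGB1 and HMGB3 promoters are printed as examples, chosen after the levels and the motifs were seen. The window of HMGN1, which was also lower in whole senescent cells, holds CCAAT 2 times, as does that of HMGN3, which was not lower by 1 or more. HMGB1 is shown from chr13:30465966-30466186 on the minus strand (221 nt) and HMGB3 from chrX:150983085-150983285 on the plus strand (201 nt), without the bases that overlap an annotated exon. Capitals mark CCAAT and, in HMGB3, TTTGAA, the letters of the cell cycle homology region.
HMGB1 promoter: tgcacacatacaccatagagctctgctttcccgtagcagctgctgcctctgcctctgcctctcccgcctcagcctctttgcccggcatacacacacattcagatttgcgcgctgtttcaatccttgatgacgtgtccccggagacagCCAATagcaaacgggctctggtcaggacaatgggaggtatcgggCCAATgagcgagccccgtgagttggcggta
HMGB3 promoter: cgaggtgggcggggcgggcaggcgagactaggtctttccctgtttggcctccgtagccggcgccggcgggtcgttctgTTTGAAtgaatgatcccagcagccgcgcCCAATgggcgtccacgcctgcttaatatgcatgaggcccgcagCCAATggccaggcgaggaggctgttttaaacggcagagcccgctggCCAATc
The printed parts hold CCAAT 2 times in HMGB1 and 3 times in HMGB3, and TTTGAA 1 time in HMGB3. Searched on both strands, CCAAT occurred in 7 of the 12 windows (6 genes: HMGA1, HMGB1, HMGB3, HMGN1, HMGN2 and HMGN3), beside 32.0% of 35116 promoters of the same length. TTTGAA occurred in 2 of 12, beside 13.3%, in 1 of the windows of HMGB1 and 1 of HMGB3. The E2F motif TTCCCGC occurred in 0 of 12, beside 5.52%. No motif searched contains another. The matches describe these letters in these windows and are not evidence of binding.

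Other genes of chromatin and of the pathways around HMG proteins are given for the whole-cell comparison, from lists chosen by function, beside the 14.6% of coding genes higher and 22.3% lower. Linker histones, with which HMG proteins compete for nucleosomes, were lower by 1 or more for 6 of 7 genes and higher for 0. H1-5 was at 92.8 FPKM in the young and 0.329 in the senescent library, H1-4 at 143 and 2.52, and H1-3 at 58.0 and 0.794. The median of the 6 linker histones above 0 in both libraries was −3.73.

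Of 23 heterochromatin proteins and histone chaperones, 16 were lower and 2 higher (median −1.22). With equal annotated sums 10 of 23 were lower (median −0.98), beside 17.7% of coding genes. By the median of ratios 10 of 22 were lower (−0.99), beside 17.4%. CABIN1, a subunit of the HIRA histone chaperone complex, was at 50.1 FPKM in the young and 6.23 in the senescent library, and HIRA itself at 10.9 and 2.48. H3-3B, which encodes the histone variant H3.3 that HIRA deposits, was at 116 and 32.7 FPKM, and CBX5, which encodes heterochromatin protein HP1 alpha, at 19.9 and 5.31. Of 23 other genes with an HMG box, 7 were lower and 1 higher, with a median of −0.79. SSRP1, a subunit of the nucleosome-remodelling complex FACT, was at 20.1 and 3.93 FPKM, and NSD2, a histone methyltransferase with an HMG box, at 174 and 60.0. CIC, a transcriptional repressor, was at 7.23 and 1.90 FPKM and the transcription factor SOX11 at 2.85 and 0.0793.

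The SET complex, which contains HMGB2, had 5 of 6 genes lower and 0 higher (median −1.31). SET was at 125 FPKM in the young and 49.6 in the senescent library, APEX1, a DNA repair endonuclease, at 127 and 50.5, NME1 at 69.4 and 24.7 and ANP32B at 58.2 and 23.1. Of 12 genes of the circuit of HMGA2 and let-7, 3 were lower and 2 higher (median −0.40). With equal annotated sums 1 was lower and 2 higher, beside 17.7% and 18.7% of coding genes. MIRLET7BHG, the host transcript of let-7 genes, was at 169.6 and 76.3 FPKM. ARID3B and IGF2BP1 were at 27.3 and 9.02 and at 48.1 and 19.9 FPKM, and IGF2BP3, a relative of IGF2BP1, was higher, at 5.82 and 15.7.

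Of 7 measured genes for HMGB1 export, modification and reception, 3 were lower and 0 higher (median −0.48). XPO1, the exportin that carries HMGB1 out of the nucleus, was at 16.9 FPKM in the young and 26.9 in the senescent library. KPNA2, an importin, was at 45.4 and 19.1 FPKM, PARP1, which modifies HMGB1, at 19.3 and 5.02, and CXCL12, a chemokine that HMGB1 binds, at 12.01 and 1.08. The HMGB1 receptors AGER and TLR2 were listed at 0 in all 4 libraries, and TLR4 reached 0.692 FPKM in whole senescent cells alone. All 12 proliferation markers were lower by 1 or more, 4 of them listed at 0 in senescent cells, with a median of −2.52 over the other 8. CDK1, the mitotic kinase, was at 26.2 and 1.56 FPKM, MKI67 at 12.1 and 0.264, MCM5, a subunit of the replicative helicase, at 25.7 and 3.51, and the kinase AURKB at 17.0 and 0.106. The medians of all 7 lists stayed below 0 in whole cells under both rescalings. The part of the lower proliferation markers in the HMG values was not tested.

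In mitoplasts, where 56.5% of coding genes were lower by 1 or more in senescent cells, 9 of 11 measured proliferation markers, 5 of 7 linker histones, 5 of 6 SET complex genes and 19 of 24 heterochromatin and chaperone genes were lower. With equal annotated sums these counts were 8 of 11, 4 of 7, 3 of 6 and 12 of 23, beside 39.5% of coding genes. The median of the linker histones then turned from −0.91 to 0.58. Between fractions of young cells, where 35.2% of coding genes were lower in mitoplasts, 1 of 7 linker histones, 1 of 6 SET complex genes, 3 of 12 proliferation markers and 8 of 24 heterochromatin and chaperone genes were. As deposited, 0 genes of the first 3 lists were higher there, beside 20.9% of coding genes. By the median of ratios 3 SET complex genes and 3 proliferation markers were higher, beside 27.9% of coding genes.

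By distance over log2(FPKM + 1) in the 4 libraries, among 4528 coding genes above 0 in all of them and at 10 FPKM or more in 1, the genes most like HMGB2 were KCNK2, a potassium channel (distance 0.71), ALDH7A1, an aldehyde dehydrogenase (0.92), the transcription factor JUNB (1.08), MCM5 (1.08) and AGPAT5, an acyltransferase (1.11). KCNK2 was at 38.5, 1.85, 18.5 and 17.1 FPKM in whole young cells, whole senescent cells, young mitoplasts and senescent mitoplasts. Like HMGB2 it was lowest in whole senescent cells. The genes most like HMGA2 were HSD17B12 (1.40), UBE2E3 (1.70), ST3GAL3 (1.91), FRMD6 (2.02) and LENG8 (2.36). HSD17B12, a steroid and fatty acid reductase, was at 867, 675, 56.0 and 4.56 FPKM in the same order. The distances rest on 4 values each and describe the pattern alone.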

How the data were processed

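RNA was measured in 4 libraries of WI-38 cells, 1 per group, with groups taken from the labels. Per the file headers, the deposited values are FPKM for 393483 transcripts per library, of which 185591 carry an Ensembl identifier. TopHat2 2.0.14, Cufflinks 2.2.1, Cuffdiff and the build hg19 are named in the submitters' processing notes, with neither role nor order. The annotation release, strand setting and library depth were not given in the sources used here. Per the labels' protocols, a TruSeq RNA kit was used for the libraries. Files were joined by transcript, and a row counted as annotated where any file gave its Ensembl identifier. Identifiers were matched to GENCODE 29 (93.0%), used for names, types, lengths, spliced sequences and for which antisense genes overlap a member. Its exon positions also placed the coding spans and trimmed the printed promoter windows. No positions from it were applied to the deposited values, as the files use another build.

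FPKM was summed per gene. Ratios are log2((A + 1)/(B + 1)), for genes at 1 FPKM or more in a library of the pair, and a gene counted as higher or lower past a ratio of 1. The background is all nuclear protein-coding genes under the same filter. With 1 library against 1 there is no test, and no p-value is given. No ratio is given against a library at 0, and every median, that of coding genes too, is over genes above 0 in both libraries. The computation ran in Python 3.11.15 with pandas 2.3.3, numpy 2.4.6 and Biopython 1.88, and was checked on simulated data. The alternatives were another pseudocount, other filters, a rescaling of the libraries in 2 ways, coding or longer transcripts alone, and assembled transcripts or pseudogenes added.

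The members and lists were chosen with earlier results of these data known. Named are all 10 genes with the leading transcript in each library, the 5 genes nearest to HMGB2 and to HMGA2, and the 4 members of each list with the largest whole-cell ratio. AGER, TLR2, TLR4 and, in the closing section, TFAM, UBTF, BBX, HMG20B, HAVCR2 and VWF were named after their values were seen.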

Additional observations from a re-analysis of the deposited data

Results flagged for a closer look

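HMGA1 was the HMG gene whose ratio of mitoplasts to whole cells had opposite signs in young and senescent cells with a size of 1 or more in both. HMGB2 (−0.88 and 1.85), HMGN2 (2.06 and −0.97) and HMGN1 (−0.17 and 0.05) also had opposite signs, with a smaller size in at least 1 of them. For HMGA1 the log2 ratio was 1.19 in young cells (559 against 244 FPKM) and −1.58 in senescent cells (31.2 against 95.0 FPKM). With 1 library per group the difference was not tested. It kept both signs with equal annotated sums (0.52 and −1.03) and by the median of ratios (1.68 and −0.40), each time with 1 of the ratios below 1 in size.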

How the results depend on the processing

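No paired analysis was possible because each group holds 1 library, and for the same reason no library could be left out. Over 10 alternatives, 73 of 80 recomputed counts of HMG genes stayed within 1.5 times their value and 7 did not. Of 302 recomputed ratios of single genes, 253 stayed within that range of the fold. The sign differed in 18, of which 3 had a reported ratio of 1 or more in size and 15 a smaller one. With protein-coding transcripts alone, 1 gene (HMGA2) was higher in whole senescent cells in place of 0, and with identifiers taken from each library's own file, an alternative chosen after seeing the data, 1 gene (HMGN4) was. Between fractions of young cells, equal annotated sums gave 1 higher in place of 3 and 3 lower in place of 1, and transcripts of 1000 nt or longer gave 0 lower. Between fractions of senescent cells, the median of ratios gave 2 higher in place of 1 and 4 lower in place of 7. HMGB3, 1 of the 7, fell below the filter there. With transcripts of 1000 nt or longer, HMGB1 had a ratio of 0.00214 between whole-cell libraries and 0.176 between fractions of senescent cells, and with coding transcripts alone HMGA2 had 1.57 between fractions of young cells. These 3 turns follow from which transcripts enter the sum. The other turns came with the same restrictions, with a rescaling, or with assembled transcripts or pseudogenes added. Beyond that, no cause was tested. The unknown depth limits all low values, and 0 in senescent mitoplasts above all.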

Other observations

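Other genes with an HMG box had varied levels over the 4 libraries. TFAM, the HMG-box protein that packages mitochondrial DNA and is encoded in the nucleus, was at 7.09 FPKM in whole young cells, 7.50 in whole senescent cells and 6.10 in young mitoplasts, and was listed at 0 in senescent mitoplasts. UBTF, the HMG-box activator of ribosomal RNA genes, was at 27.9, 12.02 and 29.9 FPKM in the same 3 libraries and also at 0 in senescent mitoplasts. BBX was at 413 and 347 FPKM in the young and senescent whole-cell libraries, 2.39 in young mitoplasts and 80.7 in senescent mitoplasts. HMG20B had 0 in whole young cells, and 16.1, 27.4 and 71.3 FPKM in whole senescent cells, young mitoplasts and senescent mitoplasts.

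HAVCR2 and VWF, from the lists above, had little or no signal in the other 3 libraries and a level above 20 FPKM in senescent mitoplasts. HAVCR2, an immune receptor that can bind HMGB1, was at 28.4 FPKM there and listed at 0 elsewhere. VWF, an endothelial marker, was at 23.3 FPKM there and at or below 0.111 FPKM elsewhere. Of 11047 coding genes, 927 were higher by 1 or more in senescent mitoplasts and listed at 0 in young mitoplasts. Against whole senescent cells, 899 of 10867 were higher and listed at 0 in whole cells.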
